A study of Homo sapiens and Mus musculus with 16 samples.

Results

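The mucin gene loci were taken as the gene bodies of MUC1, MUC2, MUC3A, MUC4, MUC5AC, MUC5B, MUC6, MUC13, MUC16 and MUC20 with 20 kb on each side, and as the same windows around their mouse orthologs. Every accessible region that overlapped such a window was a member, and a region near 2 mucins was counted once. The 4 region lists held 225 members among 364071 regions. These were 73 of 118107 in HPAF-II control (Cas9), 68 of 97047 in HPAF-II HNF4G-KO, 37 of 68074 in KPC primary tumor and 47 of 80843 in KPC liver mets. The mouse annotation holds both Muc3 and Muc3a, and both windows were searched as counterparts of MUC3A.

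Accessibility was profiled by ATAC-seq, in which a transposase cuts open chromatin, in 16 samples forming 4 groups of 4 replicates. HPAF-II is an established human pancreatic adenocarcinoma cell line. Its control cells were exposed to CRISPR-Cas9 and are labelled WT, and its HNF4G-KO cells carry a CRISPR knockout of HNF4G, a nuclear receptor gene, from which the study derived and pooled clones. The KPC groups are untreated mouse pancreatic cancer cell lines, 1 from a primary tumor and 1 from liver metastases (mets), which the study calls matched, so each KPC group stands for a line and not for several animals.

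Each group was represented by 1 region list. No value per replicate or read depth was held, no test could be made, and Wilson 95% intervals cover counting error only. Each region carried a score of unstated scale, so regions were ranked within their own list as a score percentile, with 0 the weakest and 100 the strongest. Regions of a pair that had 1 bp or more in common were called shared. The weakest regions of the longer list can lack a partner because the other list is shorter, and this cannot be told apart from a change in accessibility.

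Mucins are large glycoproteins whose serine- and threonine-rich repeats carry dense O-linked sugars. The gel-forming members MUC2, MUC5AC, MUC5B and MUC6 are secreted and lie side by side in 1 gene cluster. MUC1, MUC3A, MUC4, MUC13, MUC16 and MUC20 are anchored in the membrane of epithelial cells, where several of them reach into signaling by receptor kinases, and MUC16 is the source of the serum marker CA125.

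The lists were checked against cell type markers. A start-site region, meaning a region within 1 kb of an annotated transcription start, was present for 6 of 7 epithelial and ductal markers in both HPAF-II lists, without CFTR, and for 7 of 7 in both KPC lists, beside 74.8% and 72.7% of all protein-coding genes in control and HNF4G-KO and 57.9% and 59.1% in primary tumor and mets. The HPAF-II counts are close to the share of all genes. None of the 3 endocrine markers had one in any list, although 1 of them was not found in the mouse annotation. In control, HNF4G-KO, primary tumor and mets, the counts were 1, 2, 0 and 0 of 4 acinar markers, 2, 2, 1 and 1 of 3 mesenchymal markers, 0, 0, 1 and 1 of 2 endothelial markers and 1, 1, 0 and 0 of 3 leukocyte markers. Their part in the mucin results was not tested. The window of HNF4G held 12 regions in control and 9 in HNF4G-KO, with the strongest start-site region at percentile 82.4 and 82.7, which does not check a knockout made by small edits in the coding sequence.

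The sequences below are examples. They show the strongest mucin region without a partner in control, primary tumor and mets, and the 1 mucin start-site region that lacked a partner. The last is from a shared region, the 1 mucin region whose central 300 bp held the HNF4 consensus. The last was chosen after its values were seen. All are the forward strand of the reference genome, and capitals mark consensus matches (RUNX in the first mets region, HNF4 in the last). The last stretch was marked for HNF4 only, so a RUNX match near its end (aaaccaca) stands in lower case. The control (Cas9) region lies in coding sequence of MUC3A at chr7:100951868-100952112 (hg38), and the primary tumor region upstream of Muc5ac at chr7:141782526-141782727 (mm10). The first mets region is the central 300 bp of the region chr7:141835867-141836263 upstream of Muc5b (mm10). The second is the part of the Muc5b start-site region that precedes the annotated start, chr7:141838808-141839069 (mm10). The MUC13 stretch is chr3:124934768-124934827 (hg38).
MUC3A, control only: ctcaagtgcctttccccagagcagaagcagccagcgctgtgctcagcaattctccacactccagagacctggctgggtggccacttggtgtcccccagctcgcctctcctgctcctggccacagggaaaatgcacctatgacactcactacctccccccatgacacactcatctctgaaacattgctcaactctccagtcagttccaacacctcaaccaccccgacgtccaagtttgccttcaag
Muc5ac upstream, primary tumor only: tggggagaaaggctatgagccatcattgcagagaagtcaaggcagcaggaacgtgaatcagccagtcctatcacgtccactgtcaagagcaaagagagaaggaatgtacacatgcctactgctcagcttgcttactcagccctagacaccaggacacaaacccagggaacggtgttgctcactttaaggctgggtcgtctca
Muc5b upstream, mets only: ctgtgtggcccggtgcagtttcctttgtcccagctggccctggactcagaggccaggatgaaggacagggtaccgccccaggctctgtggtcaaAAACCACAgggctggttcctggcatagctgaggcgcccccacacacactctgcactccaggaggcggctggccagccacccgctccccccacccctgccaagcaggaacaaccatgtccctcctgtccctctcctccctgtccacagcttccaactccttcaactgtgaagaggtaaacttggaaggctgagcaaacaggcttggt
Muc5b start, mets only: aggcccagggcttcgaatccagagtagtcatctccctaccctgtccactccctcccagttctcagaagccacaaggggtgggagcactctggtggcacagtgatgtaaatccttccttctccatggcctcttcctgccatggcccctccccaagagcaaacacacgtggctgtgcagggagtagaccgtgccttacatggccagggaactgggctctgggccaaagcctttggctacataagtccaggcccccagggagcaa
MUC13 start, shared: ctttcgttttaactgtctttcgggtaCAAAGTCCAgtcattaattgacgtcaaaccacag

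The question of the HPAF-II pair was whether loss of HNF4G changed chromatin accessibility at these genes. Of the 10 mucins, 8 had a start-site region in both lists, and no mucin start-site region was in 1 list alone. The whole annotation gave 74.8% of protein-coding genes in control and 72.7% in HNF4G-KO. The exceptions were MUC2 and MUC5AC. Upstream of MUC2, the main gel-forming mucin of the intestine, the nearest region ended 1162 bp before the start in control and 1074 bp before it in HNF4G-KO, just outside the 1 kb limit. Upstream of MUC5AC, the mucin of the gastric surface and airway, the nearest ended at 3619 and 3467 bp.

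MUC16 had the highest-ranked start-site region, at percentile 91.6 in control and 94.9 in HNF4G-KO. MUC20 followed at 88.4 and 89.2, and MUC1, the surface mucin of ductal epithelia, at 85.1 and 86.9. MUC3A had a region at its first start, at 49.7 and 70.9, and a stronger one at a start near its 3′ end, at 82.4 and 90.1. Values for MUC13 were 75.9 and 73.5, those for MUC4 66.9 and 63.4, those for MUC6, the mucin of gastric glands, 47.1 and 42.6, and those for MUC5B, an airway and salivary mucin, 41.2 and 40.8. The order of the 8 genes by their strongest start-site region was therefore MUC16, MUC20, MUC1, MUC3A, MUC13, MUC4, MUC6 and MUC5B in control. In HNF4G-KO MUC3A moved above MUC20 and MUC1 through its region near the 3′ end, which also lay at a start of another annotated gene. At its first start, MUC3A ranked below MUC20 and MUC1 in both lists. At MUC5B the region lay at an internal start near the 3′ end, so the first start of MUC5B had none in either list. At MUC13 it lay at the RefSeq start, inside a longer gene record. RefSeq promoters (GRCh38.p14, 250 bases before to 50 after the start) were matched by symbol for 6 of the 10 mucins, and 5 of these 6 overlapped a region in each list, without MUC2, beside 51.5% of all genes in that table in control and 50.2% in HNF4G-KO.

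**Figure D1:**
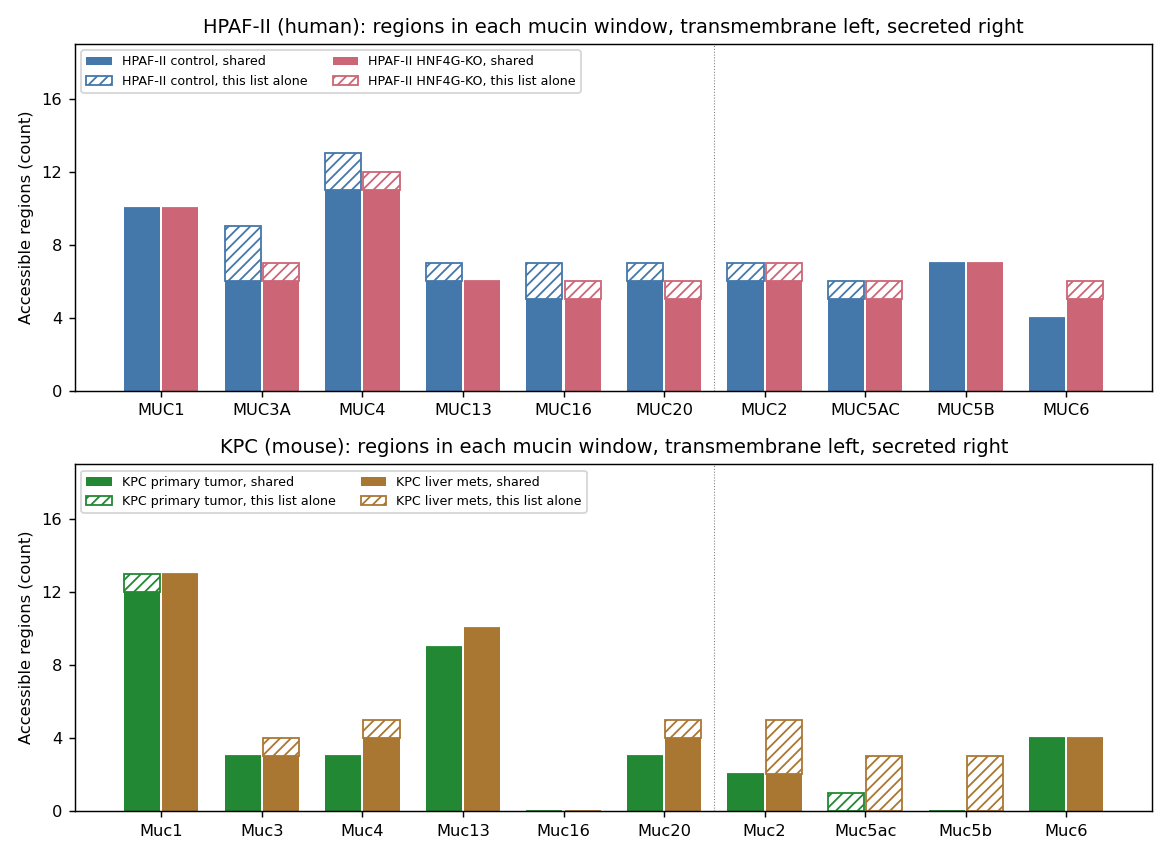
Number of accessible regions (vertical axis) in the window of each mucin gene, for the HPAF-II pair above and the KPC pair below, with filled bars for shared regions and hatched bars for regions of that list alone. A region in 2 windows is drawn in both. HPAF-II had regions at all 10 genes, while Muc16 had 0 in both KPC lists and Muc5b had 0 in primary tumor and 3 in mets.

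Of the 73 control regions, 11 (15.1%, Wilson interval 8.63 to 25.0) had no partner in HNF4G-KO, against 25.0% of the whole control list. Of the 68 HNF4G-KO regions, 6 (8.82%, 4.11 to 17.9) had no partner in control, against 6.76% of the whole list. The upper bound for control only is level with the share of the whole list, and the interval for HNF4G-KO only includes it, so at this number of regions neither share stood apart from its list. This reading depends on list length. Lists of equal size kept from both the same number of strongest regions (90% of the shorter list). Then 3.92% of control mucin regions (1.08 to 13.2) lacked a partner against 13.7% of the list. In HNF4G-KO it was 23.8% of 63 mucin regions (15.0 to 35.6) against 11.7%, so both intervals then lay apart from the share of the list. Partners were sought in the cut lists, so a region whose partner had been cut counted as lacking one. Against the full control list only 6 HNF4G-KO mucin regions lacked a partner, so the 23.8% is not a share of regions new in HNF4G-KO. All 11 and all 6 lay in the weaker 50% of their list by score, where the whole-list shares were 48.2% and 13.5%. In the stronger 50%, 0 of 36 control and 0 of 37 HNF4G-KO mucin regions lacked a partner, beside 1.86% and 0.0556% of the lists. Among the weakest 25% of control, 9 of 21 mucin regions were in control alone, beside 65.9% of all regions there, and among the next 25%, 2 of 16, beside 30.3%. The 11 control-only regions ranked between 0.761 and 33.9 with a median of 2.27, and the 6 HNF4G-KO-only regions between 2.35 and 19.4.

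**Figure D2:**
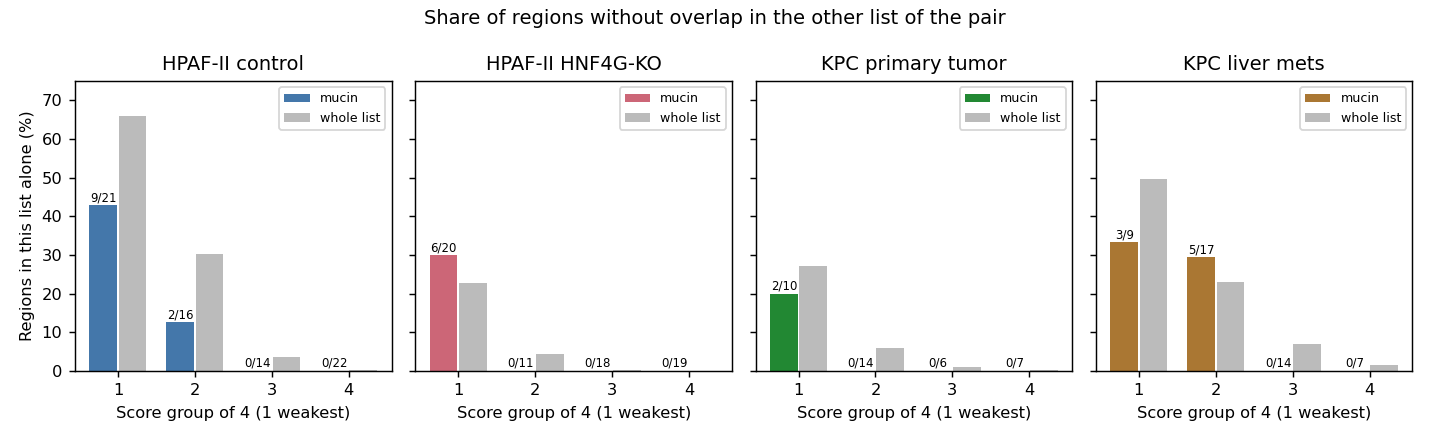
Percentage of regions without a partner in the other list (vertical axis) in 4 score groups of 25% of the list each (1 weakest), for mucin-locus regions in color, with counts above the bars, and for the whole list in grey. No mucin region of groups 3 and 4 was in 1 list alone in any of the 4 lists.

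Among transmembrane mucins, the window of MUC3A, an intestinal membrane mucin, had the most control-only regions, 3 of 9. They ranked at 33.9 in a coding exon, 10.4 in an intron and 10.1 upstream of the gene, and the HNF4G-KO list had 1 region of its own there, at 19.4. MUC16 had 2 of 7, one in its long coding exon at 31.0 (chr19:8936789-8937047) and one beyond its 3′ end at 2.27. The exonic one lay 811 bp from a shared region in the same exon that ranked 95.2 in control and 89.8 in HNF4G-KO (chr19:8935221-8936084). MUC4, a partner of the receptor ERBB2, had 2 of 13 control-only regions, both inside the gene and at 1.13 and 2.27. MUC20 and MUC13 had 1 each, at 13.4 and 0.761. MUC1 had 10 regions in each list and all 10 were shared, but only 2 of them lay in MUC1 or nearest to its start. The same held for 3 of 7 control regions of the MUC13 window and 5 of 7 of the MUC16 window, so these windows too hold regions of neighboring genes. In HNF4G-KO alone were 1 region inside MUC20, which also fell in the window of MUC4 (11.8), and 1 at the start of MBD3L1 in the MUC16 window (3.58). MUC4 and MUC20 lie beside related duplicated sequence and several mucin exons are repetitive. How reads matching several places were treated is not stated for ATAC-seq, so regions there are uncertain.

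Among the secreted mucins, MUC2 and MUC5AC each had 1 control-only region inside the gene, at 2.27 and 0.995. In HNF4G-KO alone were regions at 11.5 upstream of MUC5AC, at 14.5 upstream of MUC6 and at 2.35 downstream of MUC2. The region upstream of MUC5AC lay 159 bp from a control region. All 7 regions of the MUC5B window were shared.

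**Figure D3:**
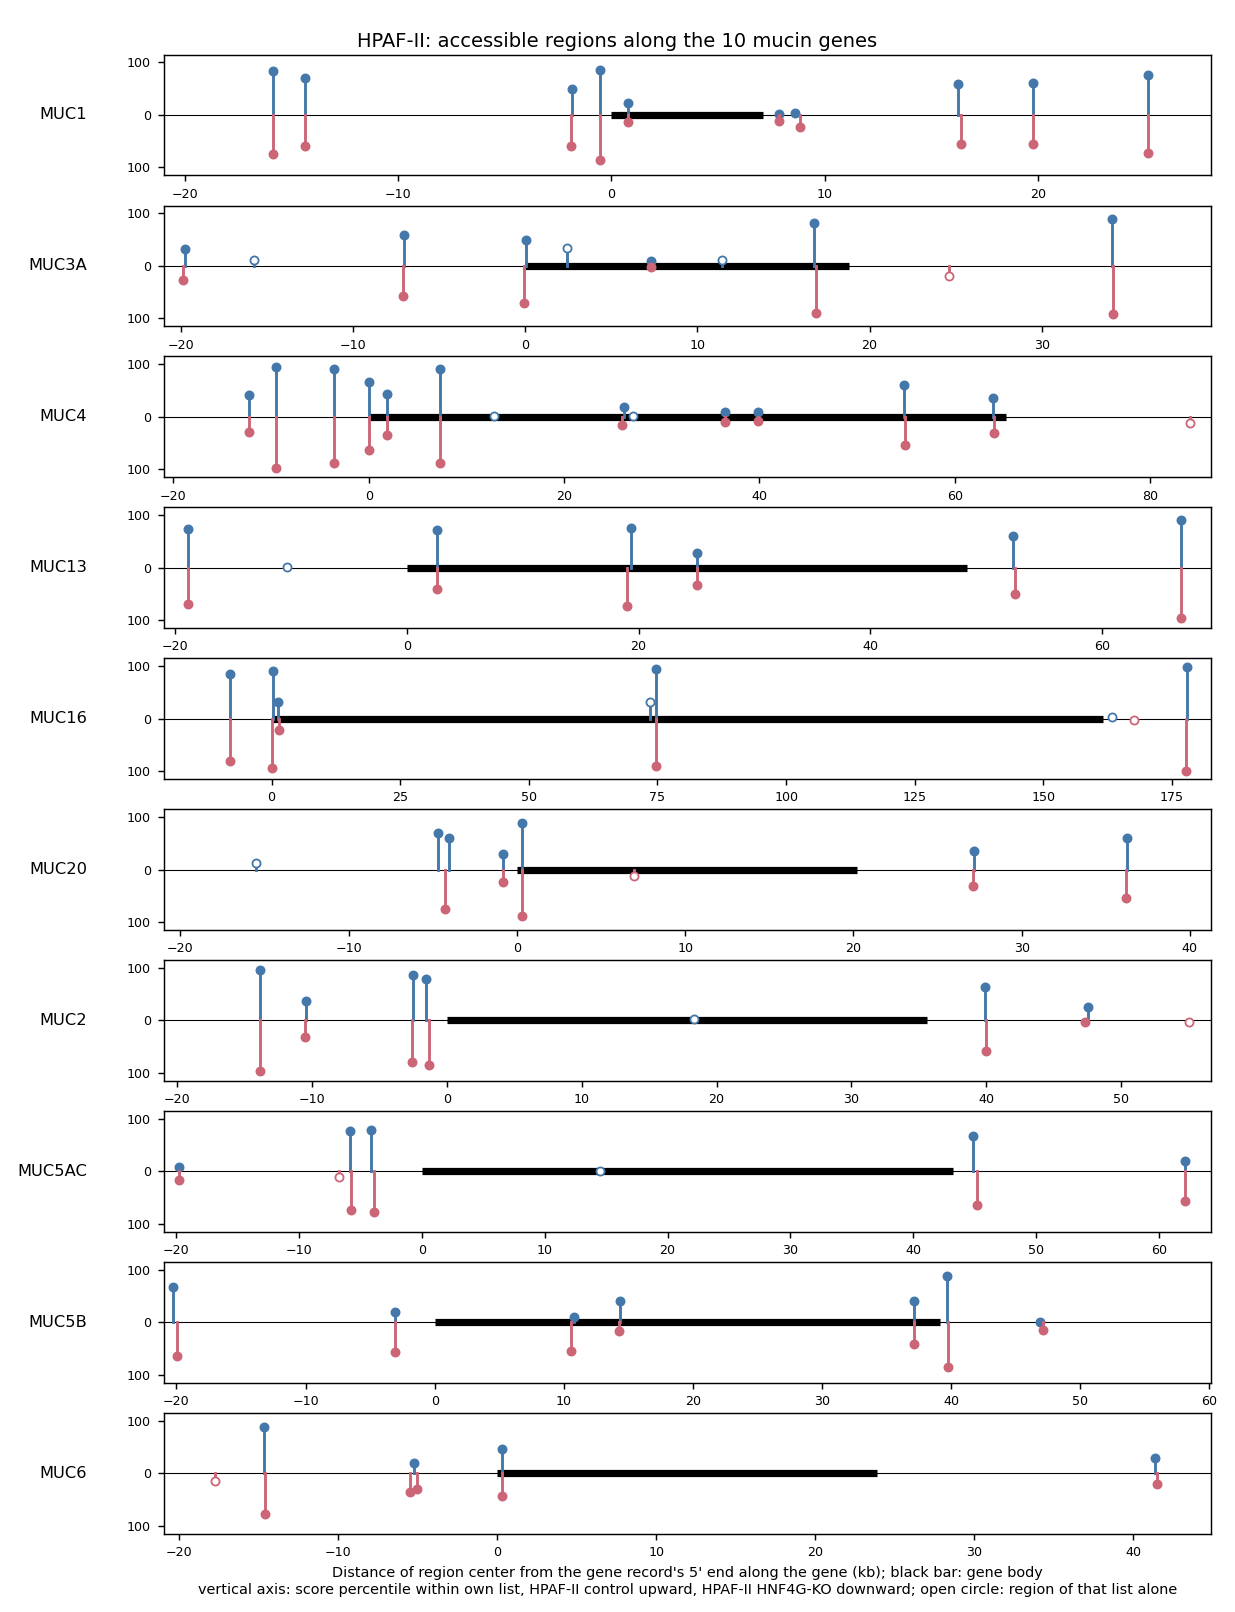
Position of each accessible region along the 10 mucin genes, as distance of its center from the 5′ end of the gene record in kb (horizontal axis), with its score percentile drawn upward for HPAF-II control and downward for HNF4G-KO. Open circles are regions of that list alone, and black bars are gene bodies. The tall bars stand in both directions, and the open circles are short, the tallest at 33.9.

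The 62 control regions with a partner were next compared by rank. The HNF4G-KO list is shorter and lacks many weak regions, so that a shared region tends to rank lower in it. Of all shared regions 70.0% ranked lower in HNF4G-KO than in control, with a median difference of -4.65 percentile points. At the mucin loci 39 of 62 ranked lower and 23 higher, with a median of -2.64 (HNF4G-KO minus control). Differences beyond 10 points were found in 7 mucin regions downward (11.3%, 5.58 to 21.5), against 33.6% of all shared regions. Upward ones were found in 7 (11.3%, 5.58 to 21.5), an interval that includes the 7.75% of all shared regions. Ranks were also taken among shared regions alone, which leaves out the regions without a partner. Their numbers still differed, with 88632 in control and 90491 in HNF4G-KO. The median then turned to 4.11, beside 0.676 for all shared regions, and 49 of 62 mucin regions ranked higher in HNF4G-KO (79.0%, 67.4 to 87.3), against 53.4% of all.

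The share of regions that ranked higher in HNF4G-KO differed with GC content in the whole list. The central 300 bp of the control mucin regions had a median GC content of 59.7%, against 49.7% for the whole list. Among shared regions over 60% GC, 25 of 33 mucin regions (75.8%, 59.0 to 87.2) ranked higher in HNF4G-KO among shared regions, beside 67.2% of all such regions. At up to 60% GC, 24 of 29 (82.8%, 65.5 to 92.4) did, beside 49.7%. The mucin share was thus above the list's within both GC classes, and in the GC-rich class its interval included the list's share. This split was chosen after the results were known. Neighboring regions of 1 locus are not independent, and the intervals do not cover that.

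The 3 largest upward differences lay at MUC5B and MUC3A. A region inside MUC5B (chr11:1233712-1233971) ranked 10.4 in control and 54.4 in HNF4G-KO, a difference of 44.0 points, and its partner was 685 bp wide against 260 bp. A region between MUC5AC and MUC5B (chr11:1219787-1220277), 2789 bp before the start of MUC5B, ranked 20.2 and 56.2. The region at the first start of MUC3A (chr7:100949185-100950025) ranked 49.7 and 70.9, with a partner 594 bp wide against 841 bp.

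The 3 largest downward differences lay at MUC13, MUC5B and MUC2. A region in an intron of the long gene record of MUC13 (chr3:124951064-124951380), which held matches to the AP-1 and CDX consensus, ranked 71.4 in control and 40.0 in HNF4G-KO, a difference of -31.4. An intronic region of MUC5B (chr11:1237229-1237582), further along the gene than the one above, ranked 41.6 and 16.1. A region downstream of MUC2 (chr11:1122107-1122665) ranked 26.0 and 3.05. MUC5B thus held differences in both directions within 1 gene.

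**Figure D4:**
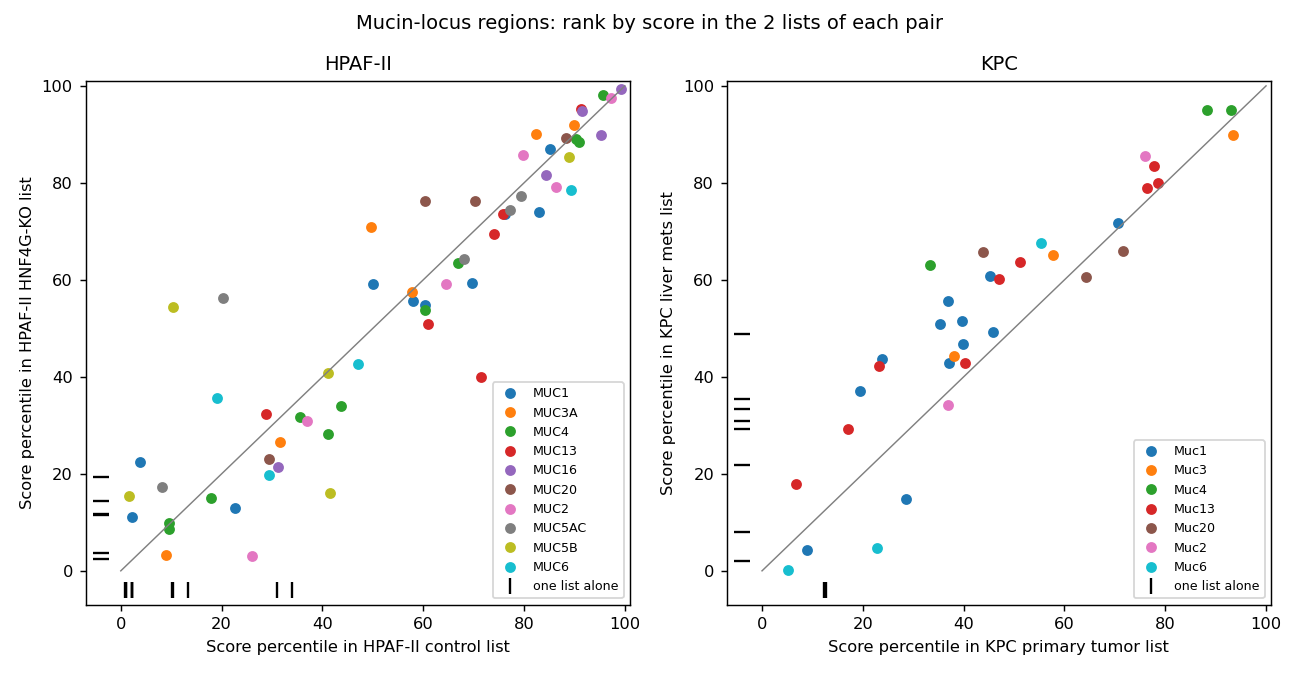
Score percentile of each shared mucin region in the 2 lists of its pair (HPAF-II left, KPC right), colored by the first mucin window that holds it, with the line of equal rank. Ticks along the axes are regions of 1 list alone. In HPAF-II 14 of 62 points lie over 10 percentile points from the line, 7 on each side, and in KPC 27 of 35 lie above it.

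The KPC pair addressed how accessibility differed between a primary tumor line and a line from liver metastases. Only Muc1 had a start-site region in primary tumor, 1 of 10 mucins, and Muc1 and Muc5b had one in mets, 2 of 10, where 57.9% and 59.1% of protein-coding genes did. Muc1 had 3 start-site regions in both lists. The one upstream of the gene (chr3:89228185-89228548) ranked 23.9 in primary tumor and 43.6 in mets, one inside the gene 19.4 and 37.1, and one in a coding exon 28.6 and 14.9. The Muc5b start-site region, printed above, was in mets alone at 29.2. The median protein-coding gene had 3 regions in its window in primary tumor and 4 in mets, and the medians over the mucins were the same.

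Of the 37 primary tumor regions, 2 (5.41%, 1.50 to 17.7) had no partner in mets, against 8.51% of the whole list. Of the 47 mets regions, 8 (17.0%, 8.89 to 30.1) had no partner in primary tumor, against 20.2%. Both intervals include the share of the whole list. All 10 lay in the weaker 50% by score, where the whole-list shares were 16.5% and 36.3%. In the stronger 50%, 0 of 13 and 0 of 21 mucin regions lacked a partner, beside 0.503% and 4.17%. The mets-only regions ranked between 1.96 and 48.9.

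The mets-only regions were unevenly placed. The windows of Muc6, Muc2, Muc5ac and Muc5b on chromosome 7 held 6 of the 8, out of 11 mets regions (54.5%, 28.0 to 78.7), and without this cluster 5.56% of the mucin regions of mets were mets-only. This cluster was singled out after its values were seen. In the window of Muc5b lay 3 mets regions, all mets-only. They were one 2807 bp before the start at 48.9, one at the start at 29.2 and one in a coding exon at 33.3 (chr7:141861116-141861381). The nearest primary tumor regions were 53140, 56081 and 39064 bp away, so no near miss of overlap was involved. Primary tumor had 0 regions in this window, and 1 in that of Muc5ac, 6245 bp before its start at 12.7, which was in primary tumor alone. The remaining mets-only regions of the cluster lay downstream of Muc2 and upstream of Muc5ac, at 21.9, 1.96 and 7.95. Muc6 had 4 regions in both lists, all shared. Outside the cluster, 1 mets-only region lay 1128 bp before the start of Muc20, at 35.4, and 1 upstream of Muc3, at 30.8. The second primary tumor-only region lay at the start of Thbs3 in the Muc1 window, at 12.3, and 451 bp from a mets region.

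**Figure D5:**
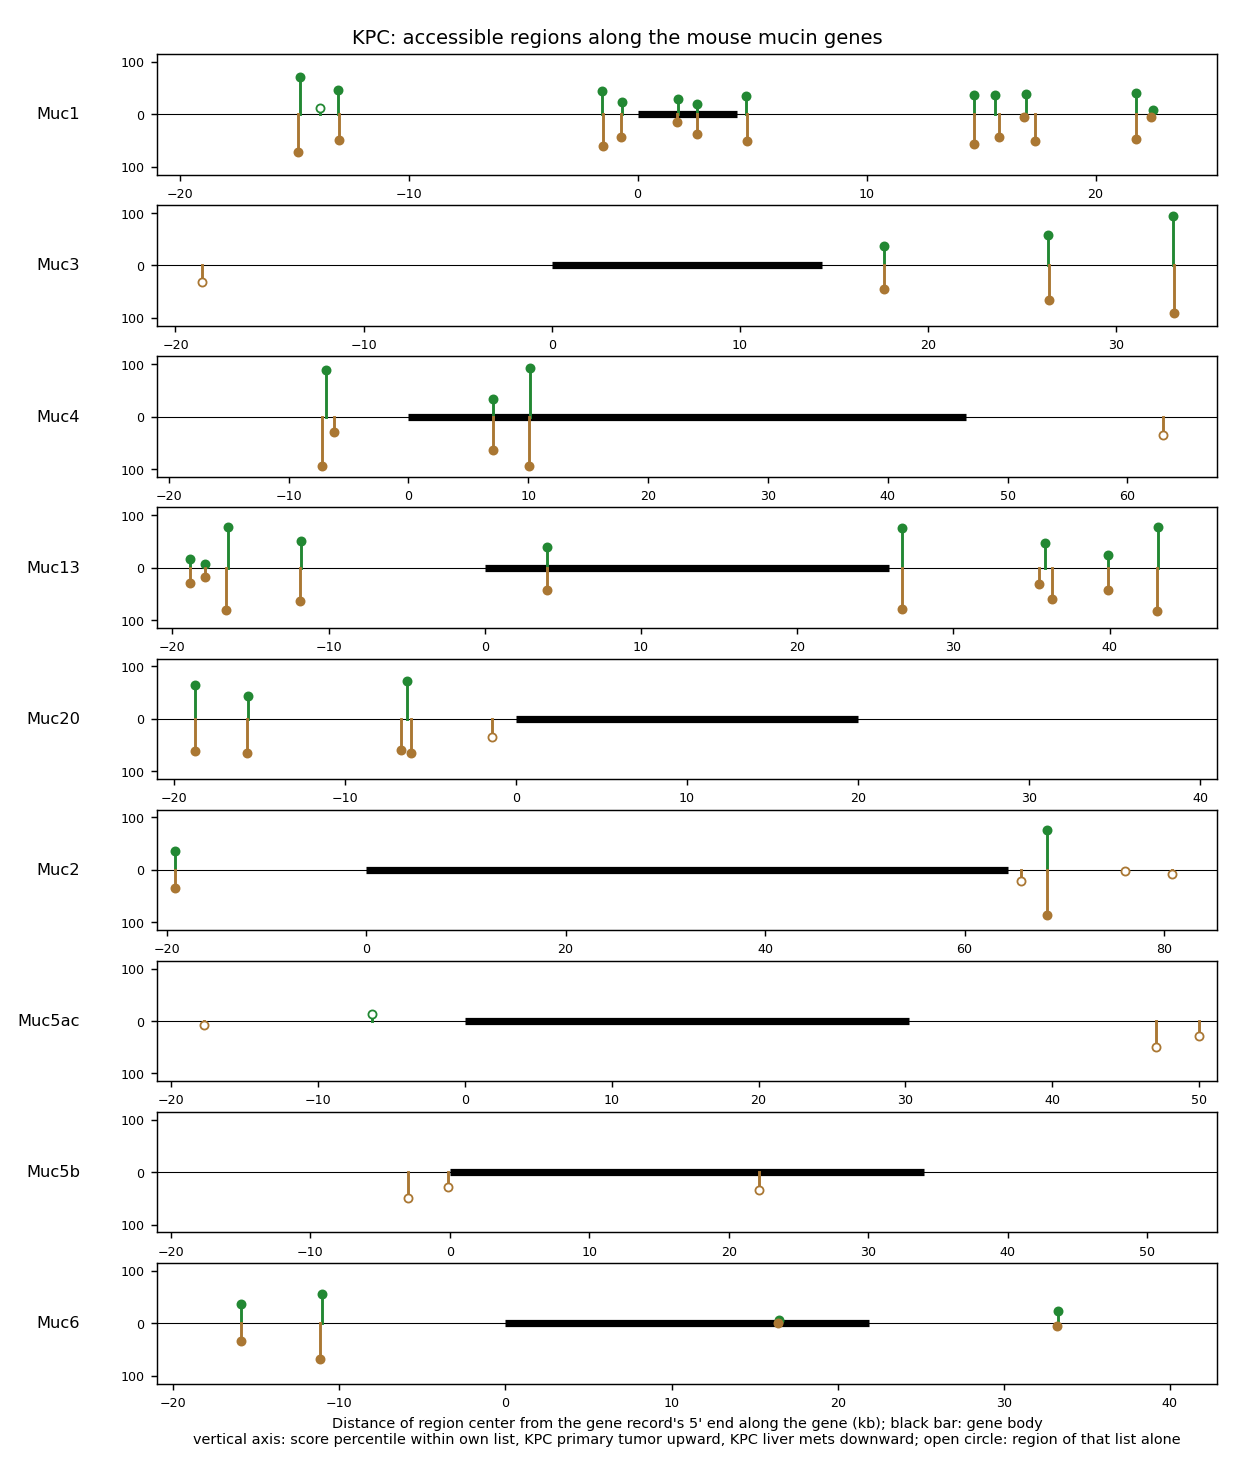
Position of each accessible region along 9 mouse mucin genes, as distance of its center from the 5′ end of the gene record in kb (horizontal axis), with its score percentile drawn upward for KPC primary tumor and downward for mets. Open circles are regions of that list alone. Muc16 and Muc3a are not drawn since no region fell in their windows, and all regions of the Muc5b panel are open and point downward.

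Of the 35 primary tumor regions with a partner, 27 ranked higher in mets and 8 lower, with a median difference of 6.81 points (mets minus primary tumor), where 64.9% of all shared regions ranked higher with a median of 3.67. Among shared regions alone the median was 3.34, beside 0.988, and 22 of 35 ranked higher (62.9%, 46.3 to 76.8), against 54.6% of all. That interval includes the share of the whole list. Differences above 10 points were found for 14 of 35 (40.0%, 25.6 to 56.4), against 30.8%. Some primary tumor regions overlapped more than 1 mets region, so the count depends on the side. Counted from the mets regions, 27 of 39 ranked higher in mets and 12 lower. The median was then 5.83, and 1.38 among shared regions, beside 3.16 and 0.555 for the whole list.

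All 9 primary tumor regions of the Muc13 window ranked higher in mets, with a median difference of 11.1, and so did 10 of 12 in the Muc1 window, with a median of 9.44. Ranked among shared regions, the medians were 6.33 and 4.31. Counted from the mets regions, 9 of 10 in the Muc13 window and 10 of 13 in the Muc1 window ranked higher in mets. The medians were then 8.46 and 6.97, and 5.11 and 1.63 among shared regions. In the Muc13 window 4 of the 9 primary tumor regions lay in Muc13 or nearest to its start. Of the others, 3 lay within Itgb5 or at its start, and the rest were nearest to the starts of Itgb5 or Heg1. In the Muc1 window 4 of the 12 lay in Muc1 or nearest to its start, and the other 8 were nearest to the starts of Mtx1, Thbs3, Trim46 or Krtcap2, so these windows are not those of the mucins alone. The largest upward differences were at an intronic region of Muc4 (chr16:32742759-32743170), 33.3 in primary tumor and 63.1 in mets, at a region of the Muc20 window nearest to Smbd1, 43.8 and 65.7, and at the upstream start-site region of Muc1. Among the primary tumor regions, the largest downward differences were at a region within Ap2a2 in the Muc6 window, 22.9 and 4.65, at the exonic region of Muc1, and at a region upstream of Muc20, 71.7 and 65.9. Counted from the mets regions, larger ones were found where 1 primary tumor region overlapped more than 1 mets region. Upstream of Muc4, a primary tumor region at 88.3 overlapped a mets region at 95.1 and a 302 bp one at 29.2. In the Muc1 window, a primary tumor region at 39.6 overlapped mets regions at 51.5 and 4.32. The strongest regions of the Muc4 locus ranked 93.1 in primary tumor and 95.1 in mets inside the gene, and 88.3 and 95.1 upstream of it. The upstream one is the Muc4 region just named.

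The human and the mouse lines differ in species, origin and list length, so their counts are given side by side with no test. Muc16 had no region in either mouse list, where MUC16 had 7 in control and 6 in HNF4G-KO. Of all protein-coding genes, 22.8% in primary tumor and 19.5% in mets had no region in such a window. In control and HNF4G-KO these shares were 5.95% and 7.39%. Muc1 had 13 in both mouse lists, beside 10 in both human lists. Of these, 4 in each mouse list and 2 in each human list lay in the gene or nearest to its start. Muc5ac had 1 in primary tumor and 3 in mets, where MUC5AC had 6 in both HPAF-II lists. The transmembrane mucins held 51 of the control regions and the secreted mucins 22, with 9 (17.6%, 9.57 to 30.3) and 2 (9.09%, 2.53 to 27.8) in control alone, against 25.0% of the whole list. In HNF4G-KO alone were 3 of 44 transmembrane (6.82%, 2.35 to 18.2) and 3 of 24 secreted mucin regions (12.5%, 4.34 to 31.0), against 6.76%. The intervals overlapped in both lists. In mets alone were 2 of 36 transmembrane (5.56%, 1.54 to 18.1) and 6 of 11 secreted mucin regions (54.5%, 28.0 to 78.7), against 20.2% of the whole list. The transmembrane interval lay below that share and the secreted one above it. The secreted regions are the chromosome 7 cluster given above, which was singled out after its values were seen. In primary tumor alone were 1 of 31 and 1 of 6, against 8.51%.

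The central 300 bp of each region were searched on both strands for short consensus sequences. The letters were CAAAGTCCA or CAAAGTTCA for HNF4, TGTTTAC for the forkhead factors FOXA, AGATAAG for the GATA factors, TGAGTCA for AP-1, ACATTCCA for TEAD, GGGTGTGGC or GGGCGTGGC for KLF, TGTGGTTT for RUNX, CCGGAAGT for ETS, and for the CDX factors TTTATTG, with the alternative TTTATGG. For CTCF, the search used its core. Matches of different factors were allowed to overlap. None of the 73 control regions held the HNF4 consensus there, where 1.53% of the whole list did, nor any KPC mucin region, where 1.48% of each list did. In HNF4G-KO 1 of 68 held it (1.47%, 0.260 to 7.87), beside 1.44%. This was the start-site region of MUC13. The match lies 43 bases upstream of the RefSeq start, and it is inside the control region too, where it is 289 bp from the center of that wider region and so outside the stretch searched. Over whole regions, 1 control and 1 HNF4G-KO mucin region held the consensus, both at this site. The region ranked 75.9 in control and 73.5 in HNF4G-KO.

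AP-1, the consensus of the JUN and FOS factors, was the most frequent at the mucin loci in all 4 lists, level with CTCF in primary tumor. It was found in 15.1% of control mucin regions (8.63 to 25.0) against 24.5% of the list, in 19.1% (11.5 to 30.0) against 25.1% in HNF4G-KO, in 13.5% (5.91 to 28.0) against 30.3% in primary tumor and in 19.1% (10.4 to 32.5) against 30.8% in mets. The interval for primary tumor lay below the share of its list, and those for the other lists included it. CTCF was found in 5 of 37 primary tumor regions (13.5%, 5.91 to 28.0) against 4.41%, and in 5 of 47 mets regions (10.6%, 4.63 to 22.6) against 4.62%, while in HPAF-II the shares were 2.74% against 3.57% and 1.47% against 3.77%. TEAD was found in 3 of 37 primary tumor regions (8.11%, 2.80 to 21.3) against 2.61% and in 3 of 47 mets regions (6.38%, 2.19 to 17.2) against 2.81%, and in no HPAF-II mucin region. The CTCF matches of the 2 KPC lists lay in the same shared regions, and so did those of TEAD, so the counts of the 2 lists are not independent. Some of these regions were nearest to Smbd1, Thbs3 or Trim56 and not to a mucin. KLF was found in 4 of 73 control regions (5.48%, 2.15 to 13.3) against 2.15%, which is level with the lower bound, and 3 of these 4 regions were in control alone. In the other lists its shares lay below those of the list. They were 1.47% against 2.27% in HNF4G-KO, 0% against 2.57% in primary tumor and 2.13% against 2.53% in mets. FOXA, GATA, RUNX, CDX and ETS had intervals that included the share of the whole list in all 4 lists. A match describes the sequence and does not show a bound factor.

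Genes that act with the mucins were read from lists written for these loci. Of 22 mucus secretion genes, 16 had a start-site region in control and 14 in HNF4G-KO, beside 74.8% and 72.7% of all protein-coding genes. The 2 that had one in control alone were FCGBP, a mucus-associated protein, at 39.3, and B3GNT6, an enzyme of O-glycan core synthesis, at 2.46. SPDEF, a transcription factor of goblet cells, ranked 74.0 in control and 58.0 in HNF4G-KO, and the trefoil factor gene TFF2 23.1 and 46.1. AGR2, a disulfide isomerase needed for mucin folding, ranked 84.5 and 84.6. Over the windows of these genes 26 of 146 control regions were in control alone (17.8%, 12.5 to 24.8), an interval whose upper bound lay just below the 25.0% of the whole list. In HNF4G-KO 8 of 133 (6.02%, 3.08 to 11.4) were in that list alone, an interval that includes the 6.76% of the whole list. In KPC, 7 of 21 had a start-site region in each list, beside 57.9% and 59.1% of all protein-coding genes in primary tumor and mets. Tff1 had one in primary tumor alone at 41.1 and Agr2 in mets alone at 9.21. Neither Spdef, Ern2 nor Bcas1 had one in either KPC list, where the human genes had one in both HPAF-II lists.

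Of 14 other mucin genes, 6 had a start-site region in both HPAF-II lists, beside 74.8% and 72.7% of all protein-coding genes. MUC12, the neighbor of MUC3A, ranked 90.2 in control and 92.2 in HNF4G-KO, and PODXL, a sialomucin, 79.1 and 62.9. Over these windows 14 of 64 control regions (21.9%, 13.5 to 33.4) and 5 of 57 HNF4G-KO regions (8.77%, 3.81 to 18.9) were in that list alone, and both intervals include the share of the whole list, 25.0% and 6.76%. In KPC, 5 of the 9 found in the annotation had a start-site region in primary tumor and 4 in mets, the difference being Mucl3 at 21.0. The shares in 1 list alone were 2 of 26 in primary tumor (7.69%, 2.14 to 24.1) and 6 of 31 in mets (19.4%, 9.19 to 36.3), and these intervals include 8.51% and 20.2% of the whole lists.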

How the data were processed

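Samples were grouped by their titles. The deposited files were 4 BED region lists, 1 per group, where the authors give every region a score. As the scale of this deposited score is unstated, it served only for ranks within a list. The submitters' processing notes name Bowtie2 2.2.6, MACS2 2.1.1.20160309 and DiffBind, with hg38 and mm10. Libraries were made by Omni-ATAC, and the methods of the study mention HPAF-II cells but not the KPC lines for ATAC-seq. Peak threshold, shift of reads to the insertion site and merging of replicates are not given in the sources used here for ATAC-seq, and read depth is unknown. No region ran past a chromosome end of hg38 (HPAF-II) or mm10 (KPC).

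Windows, start sites and features came from GENCODE 44 and M21. Each region was paired with its longest overlap in the other list. The number of shared regions and ranks of a pair refer to the control and primary tumor regions. Overlap replaced a count-based test, which needs reads per replicate. Counts were set beside those of the whole list, with Wilson 95% intervals, using Python 3.11.15, pandas 2.3.3 and scipy 1.17.1. Overlap and ranking were tested on simulated data. Named regions were all those of 1 list alone, start-site regions, and the 3 largest differences per pair in each direction. Further regions are named beside them for context. Of the ductal markers chosen, 1 gene is not reported here, nor is the sequence of the strongest HNF4G-KO-only region. The genes, lists and rules were chosen with earlier results of these data known. Alternatives covered the overlap, the score threshold, list size, the window, the start-site rule and each locus left out.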

Additional observations from a re-analysis of the deposited data

How the results depend on the processing

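Without replicate values, no library could be left out. No paired analysis was possible because each group has 1 region list and no values per replicate number. With the upper 50% of each list by score, 2.78% of control mucin regions (0.492 to 14.2) lacked a partner, beside 22.1% of the list. The shares were 0% of 13 in primary tumor (0 to 22.8) and 33.3% of 21 in mets (17.2 to 54.6), and these intervals include the 8.46% and 22.2% of the lists. Partners were sought there in the upper 50% of the other list too, unlike the counts by score group, which used the full other list. No mucin kept a start-site region in primary tumor or mets there (0 and 0). With lists of equal size, the shares were 3.92% in control, below 13.7% of the list, and 23.8% in HNF4G-KO, above 11.7%, so the order of these lists turned. Partners were again sought in the cut lists, so regions whose partner had been cut counted as lacking one. With gene bodies only, they were 4.00% in HNF4G-KO and 0% in primary tumor, and the KPC median difference was 2.28. Ranked among shared regions, the HPAF-II median turned from -2.64 to 4.11, with all shared regions moving from -4.65 to 0.676. Without the chromosome 7 cluster, 5.56% of mets regions were mets-only. The cause of these changes was not tested, apart from what the alternatives leave out by construction. With each locus left out in turn, the other shares ranged from 12.5 to 17.5% in control, 7.27 to 10.3% in HNF4G-KO and 3.23 to 7.14% in primary tumor, and the medians from -2.72 to -2.41 and from 6.11 to 6.97. The remaining alternatives stayed within the interval or spread of the reported value, and those for the HPAF-II start-site counts ranged from 6 to 7.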
